A study of Mus musculus with 28 samples.

Results

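The 8 genes Pi16, Dpp4, Cd34, Ly6c1, Dpt, Clec3b, Pcolce2 and Comp, which mark fibroblasts of the outer nerve sheath, were followed through the growth of the mouse peripheral nerve. They were taken by name from the 41605 genes of the count table, and all 8 were among the 17700 genes that passed the filter on low counts and were tested. Comp passed that filter only because of the libraries of the last stage, in which it was high. The measurement was bulk poly-A RNA sequencing of wild-type C57BL/6J nerves at embryonic days (E) 13 and 17 and postnatal days (P) 1, 5, 14, 24 and 60, with 4 libraries per stage and 28 in all. For E13 a library pooled several kinds of nerve of 2 embryos (the label gives sciatic nerve), for E17 it pooled sciatic nerves of 2 embryos, and each postnatal library held those of a single mouse. At E17 and later the outer sheaths, epineurium and perineurium, were removed by hand during dissection, so the epineurial cells that these genes mark were among those the dissection aimed to remove. Stages are named as in the labels, while the study's methods place both embryonic stages slightly later within the same day. Every comparison with E13 therefore joins a difference in age with differences in tissue and in dissection, and these cannot be told apart. Per the study's methods each stage held 2 libraries from male and 2 from female mice. The labels do not say which, so sex is part of the spread between libraries. In bulk tissue, fewer cells of a type and less RNA per cell cannot be told apart.

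The epineurium is the collagen-rich coat of a nerve. Its fibroblasts resemble the adventitial fibroblasts that surround vessels and organs throughout the body, which carry Pi16, Dpp4 and Cd34 at the surface and secrete proteins that build and process collagen. The perineurium is a separate sleeve of barrier cells beneath it, and the endoneurium inside holds the axons, the Schwann cells and fibroblast-like cells of its own. None of the 8 genes belongs to epineurial fibroblasts alone. Cd34 is also carried by fibroblast-like cells of the endoneurium, which the dissection kept, Cd34 and Ly6c1 by endothelial cells, Dpp4 by T cells, and Comp by tendon and cartilage cells.

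Levels are in CPM, which scale a gene's read count by the total of its library, after correction by TMM, a factor that corrects each library's total for differences in composition. Stage values are mean ± SD with n = 4 libraries. A change is a log2 fold change ± SE from the edgeR quasi-likelihood test, and a gene was called at a fold change of at least 2 with a p under 0.05 after Benjamini-Hochberg adjustment across the 17700 genes. The total count per library was 13899895 to 37662780, so that 1 count stood for 0.0286 to 0.0788 CPM. The tissue label was checked with 3 Schwann cell genes (Sox10, Mbp and S100b), whose summed level was 85.2 to 260 CPM in the E13 libraries and 1372 CPM or more in every other library. The E13 libraries were uneven. This sum was 85.2 CPM in E13 replicate 1 and 201.2 to 260 CPM in the others. In E13 replicate 2 a sum of skeletal muscle genes was 131 CPM, against 4.87 to 16.4 CPM in the others. At P1, replicate 1 held a Schwann cell sum of 4736 CPM against 7946 to 11111 CPM. All 7 general fibroblast genes checked (Pdgfra, Col1a1, Col1a2, Col3a1, Dcn, Lum and Thy1) were detected at every stage.

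The 8 genes were compared between adjacent stages and between P60 and P1 to ask when in development their RNA changes. Adjacent comparisons share libraries, so a high or low stage enters both of its comparisons. The largest number of calls between adjacent stages fell between P5 and P14, when 5 of the 8 genes rose (Ly6c1, Pi16, Clec3b, Pcolce2 and Dpp4) and 0 fell, where 7.11% of all genes tested rose and 4.91% fell. Between P1 and P60, 7 of the 8 rose and 0 fell, against 20.3% and 15.2% of all genes, and Cd34 was the exception with 0.19 ± 0.17 (adjusted p = 0.345). Comp is 1 of the 7, and it passed the filter on low counts only because of its P60 libraries. Markers of other cell types changed in the same comparisons. Of 6 perineurial genes 5 rose from P5 to P14 (median 2.6) and all 6 from P1 to P60 (median 4.06), and all 6 adipocyte genes and all 4 genes of pericytes and smooth muscle also rose from P1 to P60. Of the 7 general fibroblast genes, 3 rose and 3 fell from P1 to P60 (Col1a1, Col1a2 and Col3a1), and 1 rose from P5 to P14. Of 5 genes of endoneurial fibroblast-like cells, 0 rose and 1 fell (Col2a1) in either comparison. From E13 to E17, 3 rose (Ly6c1, Clec3b and Cd34) and 0 fell, against 14.2% and 21.2% of all genes.

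The other steps carried fewer calls. From E17 to P1, 1 of the 8 fell (Pcolce2) and 0 rose, against 5.41% and 6.31% of all genes, and from P1 to P5, 2 rose (Dpt and Clec3b) and 0 fell, against 4.05% and 1.79%. Between P14 and P24, 0 rose and 0 fell, against 1.51% and 1.14%. The step to P60 held 1 rise (Comp, tested only because of its P60 libraries) and 0 falls, against 2.55% and 3.41%. At an unadjusted p under 0.05 in edgeR, the steps with a count of 0 held 2 higher genes for P24 against P14, 1 higher for P1 against E17, 2 lower for P60 against P24 and 0 lower in the others. The DESeq2 Wald test gave 0 wherever edgeR did, and limma-voom with quality weights called 1 gene higher at P24 against P14 and 2 lower at P60 against P24. The median log2 fold change over the 8 genes was 3.38 for P60 against P1, where that over all genes was -0.02, and 1.73 for P14 against P5, where that over all genes was 0.

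**Figure D1:**
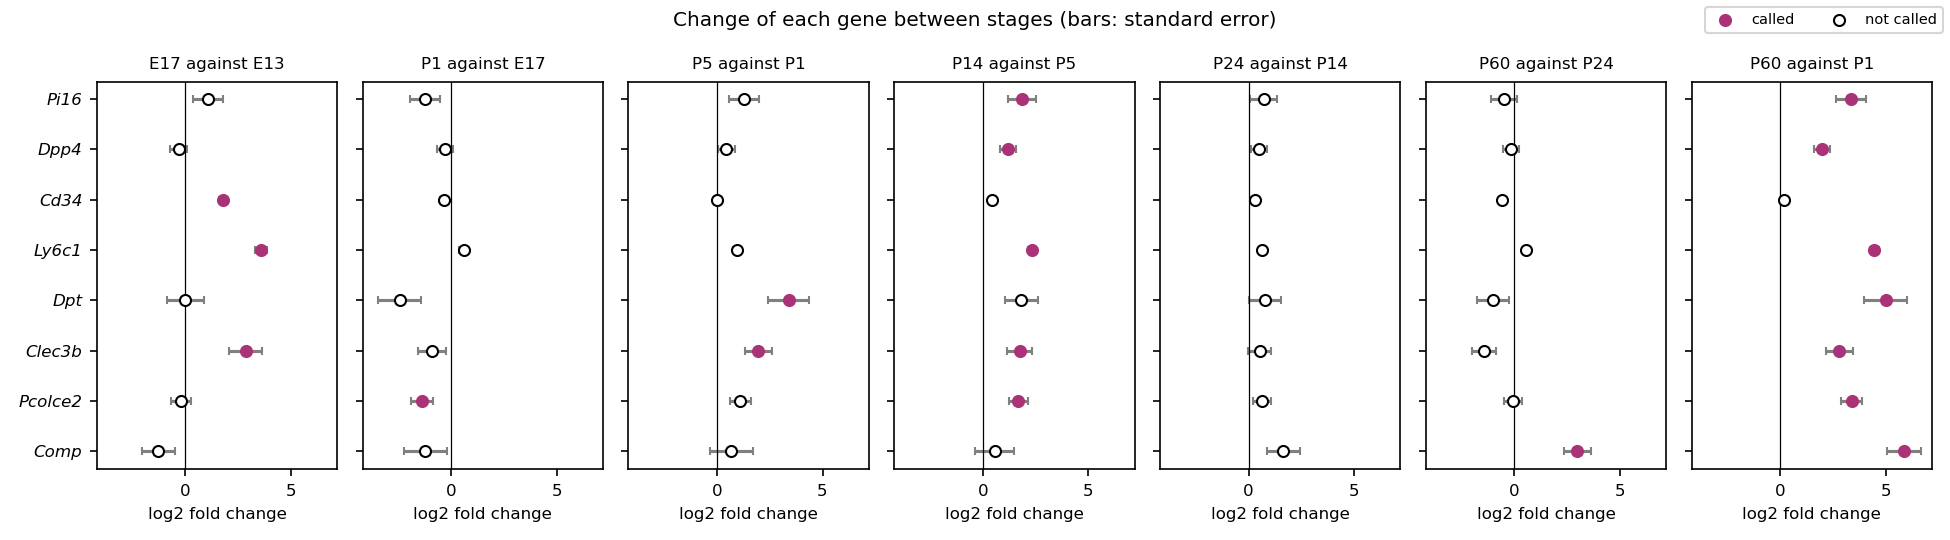
Log2 fold change of the 8 genes in each of the 7 comparisons, with bars for the standard error; filled points passed the adjusted p and the fold minimum, and open points did not. A point right of the line is higher at the later stage. The P14 against P5 panel holds 5 filled points and the P60 against P1 panel 7, all to the right of the line.

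Among the genes for surface proteins, Pi16 encodes peptidase inhibitor 16 and is used to mark the adventitial type of fibroblast. It lies on chromosome 17, 29317680 to 29330593 (GRCm38). The 4 P5 libraries held 2.21, 1.98, 7.83 and 2.28 CPM, and the P14 libraries 20.5, 11.2, 9.27 and 10.4 CPM. Each P14 library was above each P5 library, although P5 replicate 3 came close. The mean rose from 3.57 ± 2.84 to 12.8 ± 5.17 CPM, a change of 1.86 ± 0.65 (edgeR adjusted p = 0.0329). Of 20 alternative fits this call was lost in 5, namely without P5 replicate 1, 2 or 4, without P14 replicate 1 and without the filter on low counts, and the adjusted p over the 20 ran from 0.00263 to 0.107.

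After P14 the spread of Pi16 widened. The P24 libraries held 15.2, 4.29, 40.3 and 23.8 CPM and the P60 libraries 21.3, 7.4, 9.51 and 21.7 CPM. The lowest P24 library was 9.4 times below the highest, the ranges of P14, P24 and P60 overlapped, and neither step was called (adjusted p = 0.681 and 0.692). At P1 the values were 0.182, 0.75, 4.12 and 0.714 CPM, so that the P1 mean of 1.44 CPM was set largely by replicate 3. Between P1 and P60 Pi16 rose by 3.38 ± 0.71 (adjusted p = 0.000184), and all 4 P60 libraries were above all 4 P1 libraries.

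Dpp4 encodes dipeptidyl peptidase 4, a surface enzyme that removes dipeptides from the ends of peptides, and lies on chromosome 2, 62330073 to 62412231. The P5 libraries were tight at 4.5, 4.7, 4.79 and 4.22 CPM, and the P14 libraries held 14.4, 8.42, 8.49 and 10.2 CPM. All 4 P14 libraries were higher, and Dpp4 rose by 1.19 ± 0.38 (adjusted p = 0.0185). Without P14 replicate 1 the change was 0.99, just below the fold minimum, with an adjusted p of 0.0721, the highest of 20 alternatives whose lowest was 4.46e-06. From E13 to P5 the stage means stayed between 3.35 and 5.1 CPM with overlapping ranges, and no step among these stages was called. From P1 to P60 Dpp4 rose by 1.98 ± 0.39 (adjusted p = 8.48e-05), from 3.35 ± 1.26 to 13.2 ± 4.97 CPM.

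Cd34 encodes a sialomucin of stromal, progenitor and endothelial cells, on chromosome 1, 194938819 to 194961279. The E13 libraries held 42.2, 33.6, 33.8 and 40.1 CPM and the E17 libraries 140.5, 127.5, 128.5 and 114.4 CPM. The groups were far apart, and Cd34 rose by 1.77 ± 0.17 (adjusted p = 1.24e-09) across the step at which tissue and dissection also changed. After E17 the stage means ran from 100.4 ± 13.4 CPM at P1 to 170.2 ± 54.2 CPM at P24, and neighbours in the order of P24, P14, E17, P60, P5 and P1 overlapped throughout.

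None of the later steps of Cd34 reached a 2-fold change. Its value for P14 against P5 was 0.44 ± 0.17 (adjusted p = 0.0487) and for P60 against P24 -0.58 ± 0.17 (adjusted p = 0.0178). The difference between P60 and P1 depended in its sign on the scaling, being 0.19 with TMM and -0.01 with library totals alone, a setting in which the median over all genes shifted from -0.02 to -0.22.

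Ly6c1 encodes a small glycolipid-anchored protein of the Ly6 family, on chromosome 15, 75044018 to 75048830, and is one of the genes with which the study marks epineurial cells. The libraries held 0.431, 0.121, 0.217 and 0.211 CPM at E13, and 3.24, 3.33, 2.83 and 3.02 CPM at E17. By P5 they held 9.46, 8.48, 9.97 and 7.71 CPM, by P14 48, 41.4, 54.3 and 34.1 CPM and by P60 95.7, 103.9, 111.5 and 103.2 CPM. The 4 libraries of a stage were above all 4 of the stage before at every step except P1 against E17, where the ranges overlapped.

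Ly6c1 rose by 3.58 ± 0.29 from E13 to E17 (adjusted p = 2.5e-11), by 2.32 ± 0.18 from P5 to P14 (adjusted p = 2.57e-10) and by 4.47 ± 0.20 from P1 to P60 (adjusted p = 1.93e-16). Each of these calls was kept in every alternative fit run for it (18, 20 and 21 fits). The changes of 0.93 ± 0.19 from P1 to P5, 0.65 ± 0.17 between P14 and P24 and 0.57 ± 0.17 between P24 and P60 had adjusted p of 0.000686, 0.0229 and 0.0229 but were smaller than 2-fold. The coefficient of variation of Ly6c1 ran from 6.26% at P60 to 53.7% at E13, and that of Cd34, from 7.31% at P14 to 31.8% at P24, was the lower of the pair at 4 of the 7 stages.

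Ly6c1 has a close neighbour, Ly6c2, on the same strand of chromosome 15 at 75108158 to 75111970, which is expressed by monocytes. A read of the length sequenced could come from either gene at 75 of the 1731 positions in annotated Ly6c1 transcripts (4.33%), and from no other gene. For a stretch of 50 bases, as a trimmed read may be, it was 379 of 1764 positions (21.5%). How reads that fit both genes were counted was not given in the sources used here, so the counts of this pair carry that uncertainty. Ly6c2 held 84 counts over all 28 libraries, against 17299 for Ly6c1, and never exceeded 0.469 CPM in a library. None of the other 7 genes shared a stretch of that length with another gene. The 250 bases before the annotated starts of these neighbours are shown because one gene was abundant in the nerve and the other near 0. They come from RefSeq (GRCm38.p6) and are given 5′ to 3′ on the strand of the gene, at chr15:75048838-75049087 for Ly6c1 and chr15:75111972-75112221 for Ly6c2, both on the minus strand. Capitals mark a match to one of 4 motifs searched on both strands, namely the TATA box (TATAAA), the site of AP-1 factors (TGANTCA), the GC box of Sp1 (GGGCGG) and the site of TEAD factors (CATTCC). No match overlapped another.

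Ly6c1: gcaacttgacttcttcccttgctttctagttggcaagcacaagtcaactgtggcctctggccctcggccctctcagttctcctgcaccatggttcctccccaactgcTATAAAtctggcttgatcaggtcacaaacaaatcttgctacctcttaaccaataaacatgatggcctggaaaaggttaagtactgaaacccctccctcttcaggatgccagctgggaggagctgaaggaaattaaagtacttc
Ly6c2: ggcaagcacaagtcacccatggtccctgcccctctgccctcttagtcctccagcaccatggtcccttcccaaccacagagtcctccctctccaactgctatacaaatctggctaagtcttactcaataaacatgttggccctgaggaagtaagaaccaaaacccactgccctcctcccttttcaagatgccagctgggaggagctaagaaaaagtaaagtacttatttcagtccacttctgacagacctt

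Aligned end to end, the pair were identical at 171 of 290 aligned positions (59%). The Ly6c1 stretch held TATAAA 143 bases before the start, and the Ly6c2 stretch held none of the 4 motifs. Each of the 2 genes had 2 annotated starts, and only the stretch of the start nearest the gene's end given above was searched. Whether any match is used was not tested. Of all 32851 stretches of this length in the table, 12.4% held TATAAA, 6.75% TGANTCA, 32.7% GGGCGG and 12.6% CATTCC, so such a match is common.

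Among the genes for matrix proteins, Dpt encodes dermatopontin, which binds decorin and collagen fibrils, and lies on chromosome 1, 164796644 to 164824266. It was nearly absent from 3 of the 4 P1 libraries, with 0.0364, 0, 2.15 and 0 CPM, which were 1, 0, 59 and 0 counts. The P5 libraries held 4.29, 1.78, 14.9 and 2.28 CPM. The second lowest P5 library was above P1 replicate 3 and the lowest was below it, so that the groups overlapped through that replicate. Dpt rose by 3.39 ± 0.98 (adjusted p = 0.0159), but the call was lost in 8 of 20 alternatives, among them the fit without P5 replicate 3, and the adjusted p ran up to 0.127.

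The fitted fold from P1 to P5 over all libraries was 10.5. P1 replicate 3 held nearly all the P1 counts of Dpt, and without it the log2 change was 8.35, a size fixed by leaving out that library. At P14 Dpt stood at 35.2, 13.4, 14.9 and 18.6 CPM, at P24 at 32.2, 11.8, 53.4 and 44.4 CPM and at P60 at 20.6, 13, 16.6 and 20 CPM. The P14 libraries overlapped with P5 replicate 3, and the step was not called (1.83 ± 0.80, adjusted p = 0.0873, with a range of 0.00109 to 0.232 over 20 alternatives). It was called with limma-voom (2.41, adjusted p = 0.00109), with the replicate number as a block, and without P5 replicate 3, the library highest at P5 (2.90, adjusted p = 0.0169). From P1 to P60 Dpt rose by 5 ± 1 (adjusted p = 0.0001). At E17 replicate 4 held 10.7 CPM where the others held 0.427 to 0.898 CPM. The fit on all libraries gave an adjusted p of 0.999 for E17 against E13. Without that library the difference was -2.33 (adjusted p = 0.0366, the lowest of 18 alternatives), a lower E17 level that follows from leaving out its highest library.

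Clec3b encodes tetranectin, a secreted protein that binds plasminogen, and lies on chromosome 9, 123150946 to 123157432. The E13 libraries held 0.265, 0.202, 0.361 and 0.895 CPM and the E17 libraries 3.57, 3.8, 1.98 and 2.51 CPM. All 4 E17 libraries were higher, and Clec3b rose by 2.85 ± 0.79 (adjusted p = 0.00278), a call lost in limma-voom alone of 18 alternatives (adjusted p = 0.0558, range 0.000774 to 0.0558). At P1 it resembled Dpt, with 0.182, 0.125, 5.65 and 0.341 CPM.

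The P5 libraries held 5, 5.33, 10.7 and 3.71 CPM of Clec3b and the P14 libraries 22.2, 18.8, 18.3 and 24 CPM. P1 replicate 3 lay above 3 of the 4 P5 libraries, whereas the P14 libraries were all above those at P5. The rise from P1 to P5 was 1.96 ± 0.64 (adjusted p = 0.0322) and was lost in 7 of 20 alternatives, and that from P5 to P14 was 1.76 ± 0.59 (adjusted p = 0.0244) and was lost in 5 of 20. Over the alternatives the adjusted p ran from 4.01e-07 to 0.198 and from 4.24e-05 to 0.0799. The lowest of the first range belongs to the fit without P1 replicate 3 (a change of 4.74), and follows from leaving out the P1 library in which Clec3b was highest. The lowest of the second range came from limma-voom. After P24 the mean was lower, 30.0 ± 12.4 CPM at P24 and 11.1 ± 3.39 CPM at P60, but this step was not called (-1.44 ± 0.58, adjusted p = 0.0977). From P1 to P60 Clec3b rose by 2.81 ± 0.65 (adjusted p = 0.000507).

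Pcolce2 encodes an enhancer of the proteinase that trims the carboxyl end of procollagens, and is the other gene with which the study marks epineurial cells. It lies on chromosome 9, 95637601 to 95698096. The E17 libraries held 1.65, 1.9, 0.815 and 1.63 CPM and the P1 libraries 0.729, 0.458, 0.693 and 0.372 CPM. All 4 P1 libraries were lower, by 1.39 ± 0.51 on the log2 scale (adjusted p = 0.0398), at 11 to 36 counts per library. This fall did not hold in 11 of 20 alternatives, over which the adjusted p ran from 0.00785 to 0.116.

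The P5 libraries held 1.46, 1.15, 1.37 and 0.918 CPM of Pcolce2 and the P14 libraries 7.31, 2.43, 2.41 and 3.68 CPM. Again the groups did not overlap. Pcolce2 rose by 1.69 ± 0.46 (adjusted p = 0.00572), and the call was kept in all 20 alternatives, with adjusted p up to 0.0483. At P60 replicate 2 held 1.96 CPM and the other libraries 6.84 to 7.66 CPM. From P1 to P60 Pcolce2 rose by 3.39 ± 0.50 (adjusted p = 1.35e-06).

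Over the 28 libraries the gene whose course was most like that of Pcolce2 by Pearson's r was another of the 8, Dpp4, which was second by Spearman's rho. The same stretches before the starts of this pair are therefore shown, from chr9:95637378-95637627 on the plus strand for Pcolce2 and chr2:62412232-62412481 on the minus strand for Dpp4, with the same 4 motifs in capitals.

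Pcolce2: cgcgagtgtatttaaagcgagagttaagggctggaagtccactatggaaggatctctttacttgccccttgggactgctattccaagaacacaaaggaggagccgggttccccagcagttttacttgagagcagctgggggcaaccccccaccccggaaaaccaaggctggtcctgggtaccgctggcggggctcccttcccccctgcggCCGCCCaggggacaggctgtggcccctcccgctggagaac
Dpp4: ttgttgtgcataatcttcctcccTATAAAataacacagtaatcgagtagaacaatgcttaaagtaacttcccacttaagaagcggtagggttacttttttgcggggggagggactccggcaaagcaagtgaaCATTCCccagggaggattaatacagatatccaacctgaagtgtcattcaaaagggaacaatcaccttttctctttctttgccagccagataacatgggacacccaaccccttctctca

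Pcolce2 held GGGCGG on the opposite strand 40 bases before its start. Dpp4 held TATAAA 227 bases and CATTCC 118 bases before its start. No motif of the 4 was in both. The stretches of Pi16, Dpt and Cd34, which were searched in the same way, held none of the 4, and for Clec3b and Comp none was searched. The RefSeq start used for Pi16 lies 1202 bases inside the gene as given above, so its stretch is within the gene and not before it, and those of Pcolce2, Dpt and Cd34 reach 27, 19 and 2 bases into the gene.

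Comp encodes cartilage oligomeric matrix protein, a pentameric thrombospondin of tendon and cartilage, on chromosome 8, 70373558 to 70382066. It was at the edge of detection until P24. From E13 to P24 it held 0 to 13 counts in each library, and at P1 it held 0, 3, 0 and 2 counts. The P60 libraries held 73, 20, 42 and 41 counts, or 5.34, 1.45, 2.61 and 2.57 CPM, all above the highest earlier library at 0.543 CPM. Comp rose by 2.99 ± 0.63 from P24 to P60 (adjusted p = 0.00122), a call kept in all 20 alternatives, and by 5.88 ± 0.79 from P1 to P60 (adjusted p = 3.1e-07). Since Comp passed the filter on low counts only because of its P60 libraries, these rises to P60 are a description. Because P1 held 5 counts in all, the ratio of summed counts for P60 against P1 was 65.8 with a 95% counting interval of 27.7 to 205. Such intervals cover counting error only, since without molecular identifiers several reads may stem from 1 molecule.

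**Figure D2:**
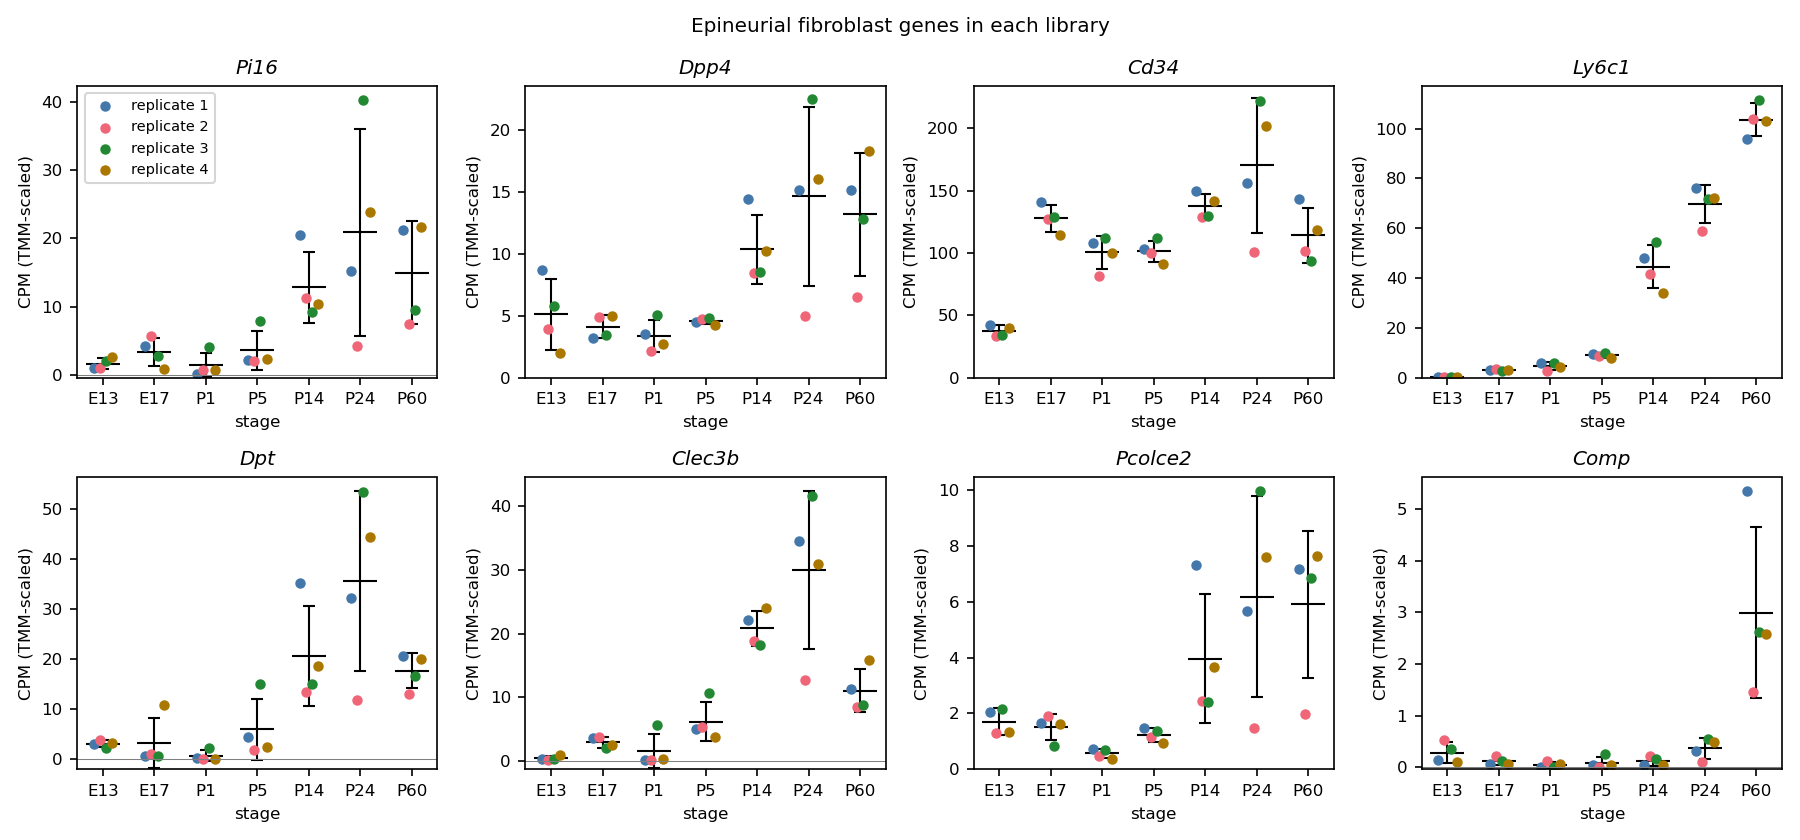
CPM of each of the 8 genes (TMM-scaled, linear axis, 1 panel per gene) in the 4 libraries of each stage, with a black bar for the mean and whiskers for the SD. Colours mark replicate numbers, which do not follow 1 animal across stages. Ly6c1 climbs from stage to stage, Pi16, Dpt and Pcolce2 spread widely at P24, and Comp is above 1 CPM at P60 alone.

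Divided by exon length, which allows levels of different genes to be set side by side, the order of the 8 genes changed along the timeline. At E17 Cd34 was first at 17.5 ± 1.47 CPM per kb and Clec3b second at 2.99 ± 0.873 CPM per kb, without overlap. At P14 Ly6c1 (26.5 ± 5.16), Clec3b (21 ± 2.8) and Cd34 (18.9 ± 1.38) led, each overlapping with the next in order. At P60 Ly6c1 was first at 61.8 ± 3.87 CPM per kb and Cd34 second at 15.7 ± 3.02, again without overlap. Pi16, Dpp4, Pcolce2 and Comp were the last 4 at P60, at 2.36 CPM per kb or less, each overlapping with the next. Exon length was that of the union of all annotated exons, from 992 bases in Clec3b to 7290 bases in Cd34, and the transcripts in use may be shorter.

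**Figure D3:**
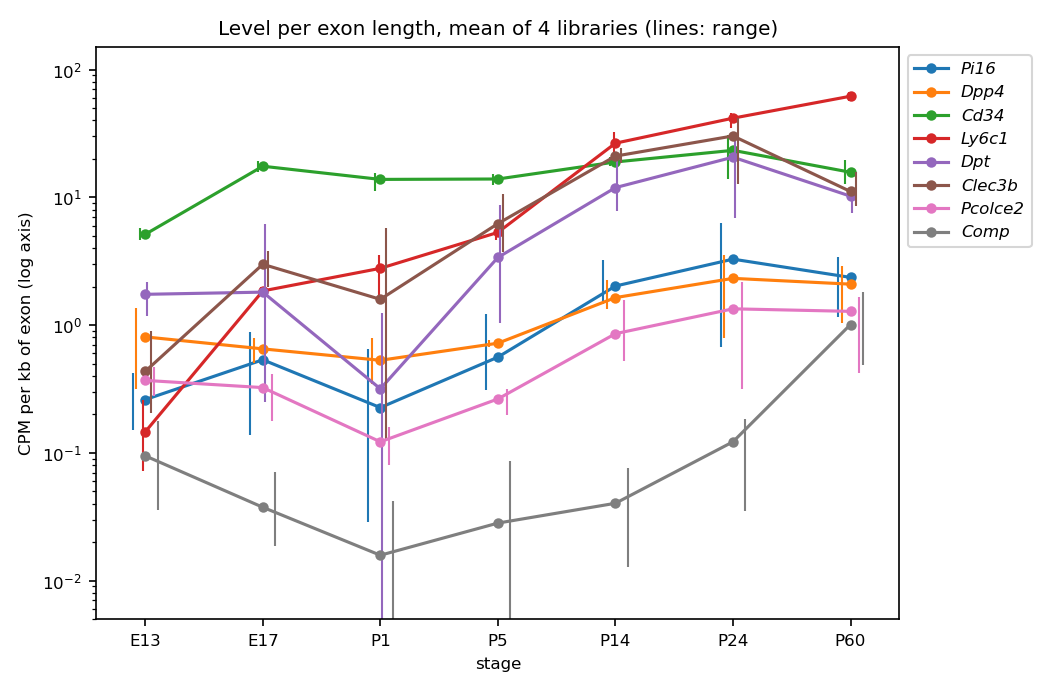
Mean CPM per kb of exon for the 8 genes at the 7 stages, on a log axis; vertical lines give the range of the 4 libraries and are drawn down to the lower edge where a library had no counts. Cd34 stays within 13.8 to 23.3 CPM per kb from E17 on, and Ly6c1 moves from seventh place at E13 to first place at P60.

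The order of stages within each gene followed 3 courses. Ly6c1 was ordered by age throughout. Pi16, Pcolce2, Dpp4, Clec3b, Dpt and Cd34 had their highest mean at P24, and for each of these 6 genes the libraries at P24 overlapped with those of the next stage in order, so that the peak at P24 was within the spread between libraries. Comp alone had its highest mean at P60 without overlap after being near 0 before. The lowest mean was at P1 for Pi16, Pcolce2, Dpp4, Dpt and Comp, and at E13 for Ly6c1, Clec3b and Cd34. For Clec3b this rested on P1 replicate 3, without which the P1 mean was 0.216 CPM, below the 0.431 CPM of E13. For Pcolce2 the P1 libraries lay below all libraries of its next higher stage, and for Pi16, Dpp4, Dpt and Comp they overlapped with it.

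Single libraries moved several of the 8 genes at once. P1 replicate 3 was the highest of its stage for 6 of the 8 genes, P5 replicate 3 for 7 of the 8, and P24 replicate 2 was the lowest of its stage for all 8. P60 replicate 2 was the lowest for 6 of the 8, with Ly6c1 and Cd34 as the exceptions. P24 replicate 3 was the highest for 7 of the 8 and for all 6 adipocyte genes, with an adipocyte sum of 312.5 CPM against 6.38 to 169.2 CPM, and P14 replicate 1 was the highest for 5 of the 8, with an adipocyte sum of 77.8 CPM against 6.34 to 53.6 CPM. Other libraries differed. In P14 replicate 4 all 6 adipocyte genes were lowest, but the 8 genes summed to 243 CPM, within the 225 to 297.3 CPM of the others. In P60 replicate 1 the 8 genes summed highest, at 320.1 CPM against 244.4 to 307.4 CPM. Its adipocyte sum of 235.3 CPM was within the 198.8 to 605.3 CPM of the others. In P1 replicate 3 Clec3b was 26.1 times and Pi16 7.51 times the mean of the other 3 libraries, while Ly6c1 was 1.39 times and Cd34 1.16 times that mean. In P24 replicate 2 Pi16 was 6.16 times and Pcolce2 5.29 times below the others, Cd34 1.92 times and Ly6c1 1.25 times.

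Marker genes of other cell types moved in the same libraries. In P24 replicate 2 the sum of 6 adipocyte genes (Adipoq, Plin1, Car3, Cdo1, Cidec and Lep) was 6.38 CPM where the other P24 libraries held 166.3 to 312.5 CPM, and the sum of 6 perineurial genes (Slc2a1, Itgb4, Cldn1, Msln, Lypd2 and Krt19) was 531.3 CPM against 838.1 to 870.0 CPM. All 6 genes of each list were lowest there. The sum of every list measured other than that of Schwann cells was lowest in this library, those of inner cell types included. Endothelial genes summed to 329.8 CPM against 444.4 to 491.8 CPM, macrophage and monocyte genes to 86.1 CPM against 125.2 to 140.6 CPM, and genes of endoneurial fibroblast-like cells to 38.6 CPM against 52 to 57.1 CPM. In P60 replicate 2 all 6 of both lists were again lowest, with sums of 198.8 CPM against 235.3 to 605.3 CPM and of 1014 CPM against 1358 to 1473 CPM. The Schwann cell sum went the other way, at 48767 CPM in P24 replicate 2 against 37875 to 45404 CPM, and at 34641 CPM in P60 replicate 2 against 25378 to 30542 CPM. This sum is nearly all Mbp, which encodes a myelin protein. Mbp and S100b were highest in both libraries, and Sox10 was highest in P60 replicate 2 but at 403.1 CPM in P24 replicate 2 lay within the 321.1 to 462.5 CPM of the others.

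In P1 replicate 3 the adipocyte sum was 4.78 CPM against 1.62 to 2.3 CPM and the perineurial sum 228.7 CPM against 150.8 to 205.2 CPM. In P5 replicate 3 these sums were 27.3 CPM against 3.09 to 15.6 CPM and 221.2 CPM against 174.6 to 212.0 CPM. There the Schwann cell sum was highest too, at 31357 CPM against 25919 to 28198 CPM, as were the endothelial sum at 319.4 CPM against 274.9 to 280.4 CPM and that of pericytes and smooth muscle at 374.4 CPM against 295.7 to 306 CPM. In P1 replicate 3 the Schwann cell sum of 7946 CPM was within the range of the others (4736 to 11111 CPM). The endothelial sum was highest in that library, at 228.9 CPM against 199.9 to 219.6 CPM. That of pericytes and smooth muscle, at 171.5 CPM, was within the 162.5 to 177.5 CPM of the others. Cidec and Lep had no counts in any P1 library. How far the stripping of the outer layers differed between animals was not measured, and its part in the levels of the 8 genes was not tested.

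Several calls changed when these libraries were left out, an alternative added after seeing the data. The share of all genes called in these refits is not given here, so the counts below cannot be set against it. Without P1 replicate 3 and P5 replicate 3, 3 of the 8 genes fell from E17 to P1 in place of 1, namely Pi16 (-2.63, adjusted p = 0.00664), Clec3b (-3.68, adjusted p = 2.78e-06) and Dpt (-7.41, adjusted p = 0.000648, at 1 count in the 3 P1 libraries). Over all alternatives these adjusted p ran up to 0.436, 0.607 and 0.958. Pcolce2 was no longer called there (-1.51, adjusted p = 0.0593). Since P1 replicate 3 was left out because these genes were high in it, a lower P1 level follows from the choice, and these values, like the rises from P1 to P5 and P5 to P14 without replicate 3, are a description. From P5 to P14, 6 genes rose in place of 5. Without P24 replicate 2 and P60 replicate 2 the number called was as before for P24 against P14 (0), P60 against P24 (1) and P60 against P1 (7).

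**Figure D4:**
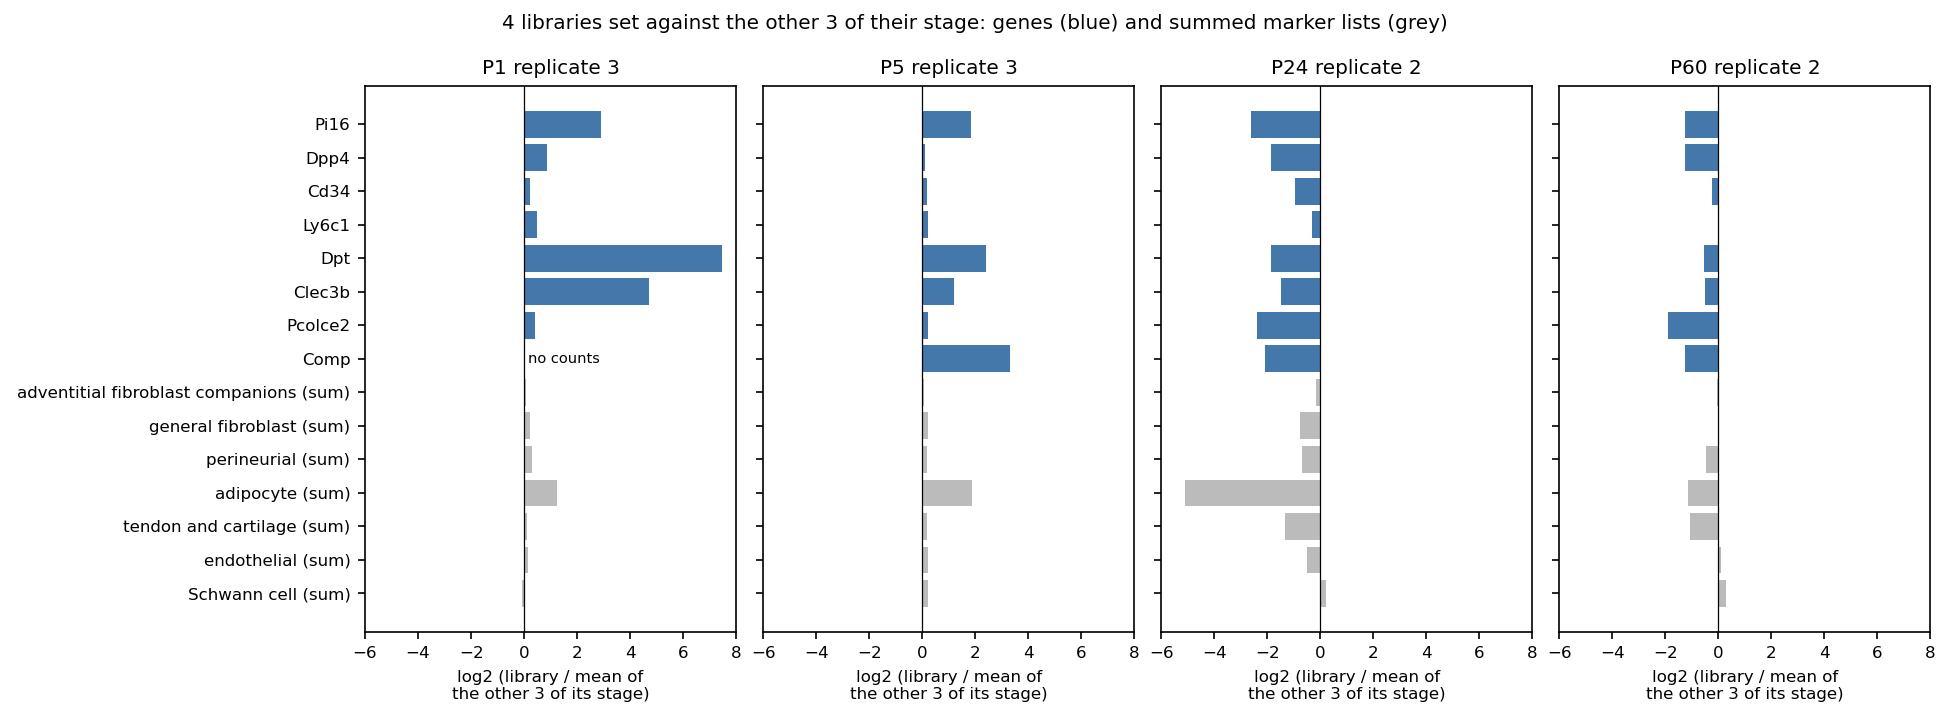
Log2 ratio of 1 library to the mean of the other 3 of its stage, for the 8 genes (blue) and for the summed CPM of marker lists (grey), in P1 replicate 3, P5 replicate 3, P24 replicate 2 and P60 replicate 2. The bars of Dpt at P1 and of Comp at P5 rest on 1 and 2 counts in the other 3 libraries. In P24 replicate 2 all blue bars point to lower levels and the adipocyte bar is the longest, while the Schwann cell bar points the other way.

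A list of 20 further genes of adventitial fibroblasts was counted beside the 8. From P1 to P60, 13 of the 20 rose and 4 fell, where 20.3% of all genes rose and 15.2% fell, with a median change of 2.58 where that over all genes was -0.02. The 3 largest rises were in Mfap5, a microfibril protein (5.56 ± 0.31, adjusted p = 1.61e-14), Ly6a, a Ly6 surface protein (5.37 ± 0.31, adjusted p = 2.13e-14), and Cd55, an inhibitor of complement (4.82 ± 0.30, adjusted p = 1.66e-13). The 3 largest falls were in Col14a1, a collagen that sits on fibrils (-1.94 ± 0.15, adjusted p = 1.18e-11), Sema3c, a secreted semaphorin (-1.36 ± 0.23, adjusted p = 1.1e-05), and Creb5, a transcription factor (-1.22 ± 0.23, adjusted p = 4.15e-05).

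Of the postnatal steps, that from P5 to P14 held the largest number of companions called, with 10 of 20 higher and 0 lower, against 7.11% and 4.91% of all genes. From E13 to E17, 12 rose and 2 fell, against 14.2% and 21.2%. From E17 to P1, 1 rose and 3 fell, against 6.31% and 5.41%, and from P1 to P5, 5 rose and 0 fell, against 4.05% and 1.79%. Between P14 and P24, 4 rose and 0 fell, against 1.51% and 1.14%, and between P24 and P60, 2 rose and 1 fell, against 2.55% and 3.41%. In P24 replicate 2, where all 8 genes were lowest, 13 of the 20 companions were lowest too and 5 were highest. Among the latter were Mfap5 with 535.9 CPM and Cd55 with 162.7 CPM, while the other P24 libraries held 498.8 to 502.0 CPM of Mfap5 and 123.9 to 134.8 CPM of Cd55.

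**Figure D5:**
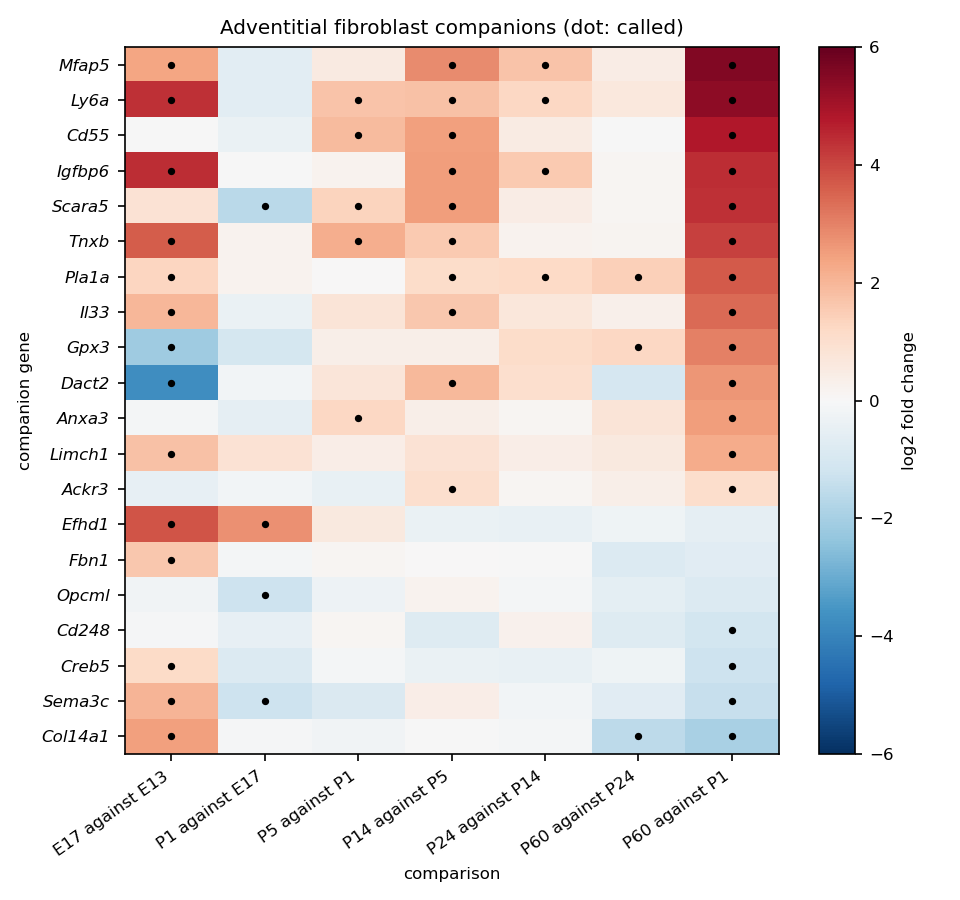
Log2 fold change of the 20 adventitial fibroblast companions (rows, ordered by their change from P1 to P60) in the 7 comparisons (columns), with a dot where a gene was called. In the P60 against P1 column 13 genes rose and 4 fell, and the P14 against P5 column holds 10 dots, all for rises.

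Other cell types that carry some of the 8 genes were measured by lists of their own. Of 9 endothelial genes, all were detected at every stage, and their sum was 199.9 to 228.9 CPM at P1 and 499.8 to 551.8 CPM at P60. Between P1 and P60, 5 of the 9 rose (Cldn5, Tek, Esam, Tie1 and Pecam1) and 0 fell, with a median of 1.25, against the 4.47 of Ly6c1 and the 0.19 of Cd34, which was not called. Cldn5, a tight junction protein of endothelium, rose by 3.88 ± 0.29 (adjusted p = 6.26e-12) and was the 1 endothelial gene of the 9 called from P5 to P14, where Ly6c1 was called as well. Esam (0.78, adjusted p = 8.71e-05), Tek (0.72, adjusted p = 0.00328) and Kdr (0.6, adjusted p = 0.00285) passed the adjusted p there but were below the fold minimum. In P60 replicate 2, where 6 of the 8 genes were lowest, Ly6c1 at 103.9 CPM was within the range of the other libraries (95.7 to 111.5 CPM), and the endothelial sum at 551.8 CPM was above theirs (499.8 to 524.8 CPM). The share of Ly6c1 RNA that came from endothelial cells was not tested.

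The 7 tendon and cartilage genes gave no common direction beside Comp. From P24 to P60, 0 of the 6 tested rose and 2 fell (Acan and Col9a1), while Fmod, a collagen-binding proteoglycan, held 24 to 75.9 CPM at P60 against 6.8 to 41.7 CPM at P24. Scx, a transcription factor of tendon, had at most 2 counts in any library from E17 on, and Chad and Acan, which are expressed by cartilage, had no counts in any P60 library. In P60 replicate 2, where Comp was lowest, the sum of this list was 232.0 CPM against 438.5 to 559.0 CPM. Most of it was Thbs4, a thrombospondin that other cells express as well, at 205 CPM against 376.5 to 481.7 CPM. Of 4 T cell genes beside Dpp4, only Cd4 passed the filter, and the sum of the 4 was at most 1.88 CPM in any library.

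The genes whose course was most like each of the 8 over all 28 libraries were picked from the 11454 genes that reached a stage mean of 10 CPM, by Pearson's r of log2 CPM. Pcolce2 and Comp stayed below that mean and could not be picked for another gene. These values are descriptions, since all genes share the libraries and the timeline. Pi16 was nearest to Scara5, a ferritin receptor and 1 of the 20 companions (r = 0.92), Islr (0.909) and Adgrd1, an adhesion receptor (0.904). Clec3b was also nearest to Adgrd1 (0.941), followed by Snhg18 (0.923) and Htra1, a secreted protease (0.908). Dpt was nearest to Medag (0.897), Thy1, a surface protein of fibroblasts (0.893), and Vasn (0.873). Pcolce2 was nearest to Dpp4 (0.927), a prostaglandin transporter, Slco2a1 (0.914), and a potassium channel, Kcnj2 (0.912). Among the genes that could be picked, Dpp4 was nearest to Mpzl2 (0.901), Kcnj2 (0.898) and Medag (0.897), below its 0.927 with Pcolce2.

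Ly6c1 was nearest to Prnp, the prion protein (r = 0.989), Sri (0.986) and Steap4 (0.985), all of which had a higher mean at each stage from P5 on than at the one before. Cd34 was nearest to Kdelr3 (0.937), Adamts2, a procollagen protease (0.926), and Dbndd2 (0.922). Comp was nearest to the gene annotated as Taz (0.917), Ccn2 (0.906) and C3, the central complement component (0.891), whose mean was 57.8 CPM at P24 and 582.5 CPM at P60. The nearest genes depended on the measure used. With Spearman's rho in place of Pearson's r, 0 of the 3 named for Ly6c1 and for Cd34 remained, and without the E13 libraries 0 of the 3 named for Ly6c1 and for Dpt. For the other genes 1 or 2 of the 3 remained in either case, and for Cd34 and Dpt 1 remained in the case not named.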

How the data were processed

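Nerves were snap-frozen and ground, and stranded poly-A libraries were sequenced as single-end 125-base reads. Per the study's methods and the submitters' processing notes, the authors trimmed the reads, aligned them with STAR 2.6.1c and counted them per gene with featureCounts. The notes name the mouse build GRCm38.p5, whereas the methods give a human build name. Strand and multi-mapping settings were not given in the sources used here. The deposited values are raw read counts per gene, 1 column per library, and no column was left unused.

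From these counts, 41519 of 41605 gene identifiers (99.79%) were matched to GENCODE M21 (GRCm38) for symbols, coordinates and exon lengths. Genes with low counts were removed with edgeR's filter, leaving 17700. All 28 libraries entered 1 fit of edgeR 4.0.16 (R 4.3.3), with TMM scaling, stage as the only term and the quasi-likelihood test, and p-values were adjusted over all genes tested. Labels do not say that replicates of a stage had separate litters, so p-values measure the spread between these libraries. No pair of replicates was identical. All 8 genes were named in every comparison, with the 3 largest rises and falls among companions for P60 against P1, the 3 most alike genes for each of the 8, and defining markers of other cell types that carry 1 of them. The 8 genes and all gene lists were chosen with earlier results of these data known. 2 genes of the Schwann cell list are not reported here and were left out of its sum.

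Alternatives were DESeq2 1.42.0 (size factors and Wald test), limma 3.58.1 (voom with quality weights), library size alone, other filters, no fold minimum, a replicate block, fewer stages and leaving out libraries. Motifs were searched in RefSeq sequence (GRCm38.p6), for which 6 of the 8 genes had an entry. Each stage mixed male and female libraries per the study's methods, but sex could not be used, since the labels do not give it per library.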

Additional observations from a re-analysis of the deposited data

Results flagged for a closer look

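Each of the 8 genes was examined in each stage where a library had over 3 counts, which gave 55 groups of 4 libraries. In 8 of them the highest or lowest library stood apart from its nearest neighbour by more than Dixon's 95% critical share of the range. Chance gives about 1 in 20 such groups where values are normal and groups independent. Here low counts need not be normal and the 8 genes share their libraries, so the number of groups was not set against that rate. P1 replicate 3 stood apart for Pi16 at 4.12 CPM (others 0.182 to 0.75 CPM), for Clec3b at 5.65 CPM (others 0.125 to 0.341 CPM) and for Dpt at 2.15 CPM (others 0 to 0.0364 CPM). P5 replicate 3 stood apart for Pi16 at 7.83 CPM (others 1.98 to 2.28 CPM) and for Comp at 0.257 CPM (others 0 to 0.0417 CPM), the latter on 6 counts. P14 replicate 1 stood apart for Pi16 at 20.5 CPM (others 9.27 to 11.2 CPM). E17 replicate 4 stood apart for Dpt at 10.7 CPM (others 0.427 to 0.898 CPM), and P60 replicate 2 for Pcolce2, with the low value of 1.96 CPM (others 6.84 to 7.66 CPM).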

How the results depend on the processing

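The 7 rises from P1 to P60 were called in every alternative run. Comp, 1 of the 7, passed the filter only because of its P60 libraries. Shares over all genes are given for the main fit alone, so the counts below are not set against them. The number of the 8 genes called from E17 to P1 was 0 without the filter on low counts, without the 4 E13 libraries and with 3 libraries left out (E13 replicates 1 and 4 and P1 replicate 1), 2 with no fold minimum, and 3 without P1 replicate 3 and P5 replicate 3, and it ran from 0 to 3 as single libraries were left out. From P1 to P5 it was 0 without the filter and 1 with only the 2 stages compared or with 3 libraries left out. It gained Ly6c1 with no fold minimum (edgeR adjusted p = 0.000686), and ran from 0 to 4 over single libraries. From E13 to E17 it was 2 with limma-voom and 4 with 3 libraries left out, and ran from 3 to 4. From P5 to P14 it was 3 without the filter, 6 with limma-voom and 6 with no fold minimum, and ran from 3 to 6. From P14 to P24 it was 1 with no fold minimum and 1 with limma-voom. From P24 to P60 it was 3 with no fold minimum, 2 with only the 2 stages compared and 3 with limma-voom.

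Changes of sign occurred in values that were not called. For Dpt from E13 to E17 the value was 0.0023 without the filter, 0.04 with only the 2 stages compared, 0.02 with 3 libraries left out and 0.03 with the DESeq2 Wald test, and ran from -2.33 to 0.39 over single libraries. For Cd34 from P1 to P5 it was -0.19 with library size only, where the median over all genes was also -0.19, -0.01 without the filter or without the E13 libraries, and -0.02 with at least 1 CPM in 4 libraries, and ran from -0.07 to 0.06. For Comp from P1 to P5 it was -0.22 with limma-voom and -1.17 without P1 replicate 3 and P5 replicate 3, and ran from -0.8 to 1.54. With library size only, Pcolce2 from P24 to P60 was 0.04 and Cd34 from P1 to P60 was -0.01, where the medians over all genes were 0.1 and -0.22. Leaving out single libraries gave -0.59 to 0.04 for Dpp4 from E13 to E17, and from P24 to P60 -0.82 to 0.05 for Pi16, -0.4 to 0.26 for Pcolce2 and -0.44 to 0.13 for Dpp4. Where fewer libraries were used the test had fewer samples, and otherwise the cause was not tested.

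Same-numbered libraries deviated together with correlations of -0.059 to 0.292, and in no comparison were all 4 above 0.1, so the numbers were not taken to pair the libraries, although the labels do not say what they stand for. With the replicate block the number called was 6 from P5 to P14, with Dpt added, and 3, 1, 2, 0, 1 and 7 in E17 against E13, P1 against E17, P5 against P1, P24 against P14, P60 against P24 and P60 against P1, as without it. At the depths used, 3 counts stood for 0.0859 to 0.236 CPM, so Comp before P60 and Dpt in 3 of the 4 P1 libraries were near the limit of detection.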
